A study of Mus musculus with 6 samples.

Results

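The 9 genes described here encode matricellular and closely related matrix proteins: the thrombospondins Thbs1 and Thbs2, tenascin C (Tnc), periostin (Postn), Sparc, osteopontin (Spp1), Ccn1, Ccn2 and fibronectin (Fn1). They were chosen by name, and all 9 were found among the 23381 genes of the deposited table. RNA was measured in mammary tumours that grew after 500000 cells of 4T1, a mouse mammary carcinoma line, had been injected into the inguinal fat pad of Balb/c mice, given as 10 weeks old. Once tumours were established, mice of the Vismodegib group were given 2 mg of Vismodegib per mouse, and mice of the DMSO group the vehicle. Both were given 3 times weekly for 3 weeks. Each group has 3 libraries. Vismodegib binds Smoothened, the membrane protein that passes on the Hedgehog signal. The labels do not say that each library came from its own mouse, so the p-values measure only the spread between these samples, which may be technical. All tumours came from 1 cell line, and the libraries hold whole tumours, with host cells and tumour cells together. The epithelial markers Epcam and Krt8, which 4T1 cells carry, were at 146 RPKM or more in every library.

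Matricellular proteins are secreted into the extracellular matrix but do little to hold it up. They bind collagen, growth factors, proteases and cell surface receptors such as integrins, and through these contacts they change how cells attach, move and signal. They are low in most resting adult tissues and are made in wounds and in tumour stroma, by fibroblasts, macrophages, vessel cells and tumour cells. Fibronectin differs in that it also forms structural fibrils.

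The 9 genes had higher means in the treated tumours, but none passed the test. The ratio of the Vismodegib mean to the DMSO mean was 1.24 to 2.22. In 5 of the 9, Spp1, Thbs1, Thbs2, Tnc and Postn, all 3 Vismodegib libraries lay above all 3 DMSO libraries, while the groups overlapped in Sparc, Fn1, Ccn1 and Ccn2. Of all 11818 genes tested, 4.29% had Vismodegib libraries that all lay above the DMSO libraries. Tested across all genes with limma, 0 of the 9 passed the threshold of 0.05 (adjusted p = 1 for each). The share of all genes that passed was 0%. At an unadjusted p under 0.05 there were 5 of the 9, the same 5 genes, against 1.94% of all genes in this direction. The median difference over the 9 genes was 0.81 on the log2(RPKM + 0.5) scale, and over all genes tested it was 0.05, with 58.4% of genes above 0. The genes were chosen with earlier results of these data known, so these counts describe the 9 genes and are no test of them. The separation was narrow. With median-ratio or quantile scaling, 3 of the 9, Tnc, Postn and Spp1, kept groups that did not overlap, against 2.75% and 2.93% of all genes.

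**Figure D1:**
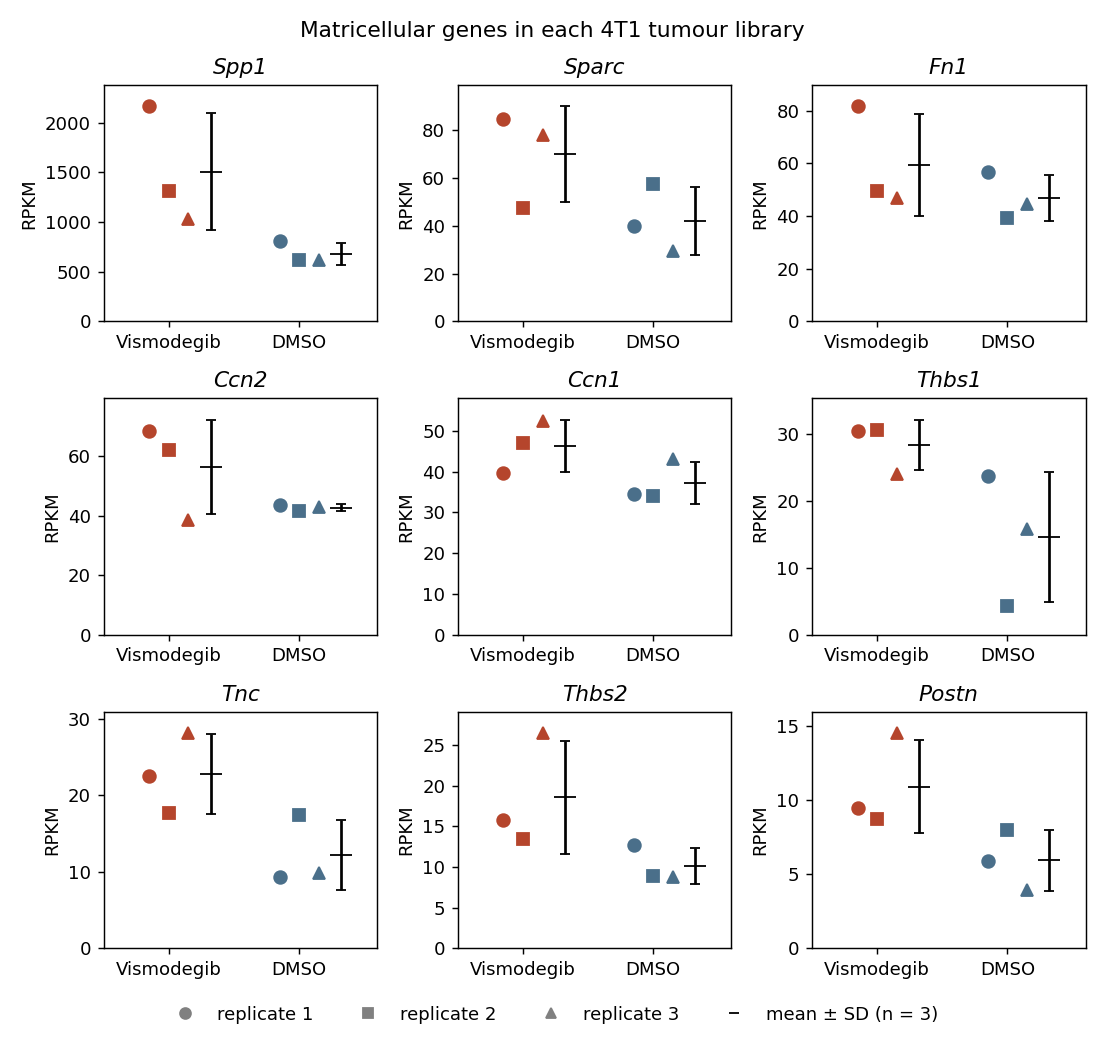
RPKM (vertical axis, from 0) of each gene in the 3 Vismodegib and 3 DMSO libraries, with panels in order of mean level; symbols mark the replicate number, and the bars give the mean and SD of each group. Spp1 shows the widest gap, with 1033 RPKM or more in every Vismodegib library and 805 RPKM or less in every DMSO library.

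Where values of 3 libraries of a group are given in a row, they are those of replicates 1, 2 and 3. The levels differed widely between genes. By mean RPKM, which is per length and so can be compared between genes, Spp1 came first at 1091 RPKM and ranked 60th of all genes in the table. Sparc at 56.0, Fn1 at 53.1, Ccn2 at 49.5 and Ccn1 at 41.8 RPKM followed. Neighbours among these 4 had overlapping ranges over the 6 libraries, and Sparc was above Fn1 in only 3 of the 6. The ranges separated again between Ccn1, at 34.1 RPKM or more, and Thbs1, at 30.5 RPKM or less. Thbs1, Tnc, Thbs2 and Postn had means of 21.5, 17.5, 14.4 and 8.41 RPKM, again with overlapping ranges between neighbours, though Thbs2 was above Postn in all 6 libraries. With the read totals recovered from the table, the lowest value, that of Postn in DMSO replicate 3, rested on about 507 reads, so that counting error was small for each gene.

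Start regions of 6 of the 9 genes, 9 starts in all, were found in the RefSeq table (build GRCm38.p6). It held none for Thbs1, Fn1 and Ccn2, so these genes were not searched for the letters below. Shown is 1 start for each of the 4 genes whose groups did not overlap and that the table holds. Beside them is Ccn1, a gene known to be induced through TEAD factors. Each is the 250 bases before the start, 5′ to 3′. Not shown are another start each of Spp1, Tnc and Postn and the start of Sparc, of which only that of Tnc holds the letters TATAAA. Capitals mark the letters TATAAA, those of the TATA box, or CATTCC, a TEAD site, on either strand.
Spp1, chr5:104434861-104435110, plus strand: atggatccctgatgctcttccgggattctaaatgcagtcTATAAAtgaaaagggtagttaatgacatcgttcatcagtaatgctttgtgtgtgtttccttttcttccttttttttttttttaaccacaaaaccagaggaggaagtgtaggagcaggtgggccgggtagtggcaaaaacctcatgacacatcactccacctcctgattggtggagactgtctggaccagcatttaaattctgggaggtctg
Tnc, chr4:64047016-64047265, minus strand: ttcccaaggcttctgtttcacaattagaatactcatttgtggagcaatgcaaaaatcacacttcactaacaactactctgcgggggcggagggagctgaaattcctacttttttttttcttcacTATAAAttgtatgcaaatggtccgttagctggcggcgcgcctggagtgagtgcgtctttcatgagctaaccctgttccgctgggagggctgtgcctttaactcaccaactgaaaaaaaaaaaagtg
Thbs2, chr17:14694263-14694512, minus strand: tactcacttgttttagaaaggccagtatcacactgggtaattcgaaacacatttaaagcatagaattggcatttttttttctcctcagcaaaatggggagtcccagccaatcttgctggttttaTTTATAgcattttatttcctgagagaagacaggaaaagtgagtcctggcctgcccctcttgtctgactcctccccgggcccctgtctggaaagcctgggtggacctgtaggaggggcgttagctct
Postn, chr3:54360857-54361106, plus strand: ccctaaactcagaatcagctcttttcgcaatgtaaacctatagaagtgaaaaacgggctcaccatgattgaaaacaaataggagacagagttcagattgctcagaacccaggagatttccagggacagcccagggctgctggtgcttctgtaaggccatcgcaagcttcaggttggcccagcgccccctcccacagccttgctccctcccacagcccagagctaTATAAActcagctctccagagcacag
Ccn1, chr3:145649986-145650235, minus strand: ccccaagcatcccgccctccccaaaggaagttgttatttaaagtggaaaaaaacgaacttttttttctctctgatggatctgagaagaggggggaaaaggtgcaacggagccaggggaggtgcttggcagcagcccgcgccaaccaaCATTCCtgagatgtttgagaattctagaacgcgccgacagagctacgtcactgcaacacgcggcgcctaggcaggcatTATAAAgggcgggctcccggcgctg
The TATA letters begin 25 bases before the start in Ccn1 and 26 bases before it in Postn, and 126 to 211 bases before it in the other 3. In Thbs2 they lie on the opposite strand. They occurred at 6 of the 9 starts, as 5 distinct sites, since the start regions of a pair of Tnc starts overlap and share 1 of them, and 12.3% of all start regions of this length held them. The TEAD letters occurred at 1 of the 9 starts, that of Ccn1, beginning 103 bases before it, against 12.6% of all start regions. The letters GACCACCCA are a site for the GLI factors of the Hedgehog pathway, and TGACTCA or TGAGTCA are AP-1 sites. They occurred on neither strand at any of the 9 starts, and 0.218% and 4.45% of all start regions held them. No match of 1 motif overlapped that of another, and a match is a description of letters, not of a factor's binding.

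Spp1 encodes osteopontin, a phosphorylated glycoprotein of bone and of activated macrophages and carcinoma cells, which binds integrins and CD44 (ENSMUSG00000029304.14, mm10 chromosome 5, 104435118 to 104441050, plus strand, 6 exons in its longest coding transcript). It was at 2162, 1316 and 1033 RPKM in the Vismodegib libraries, and at 805, 614 and 615 RPKM in the DMSO libraries. The lowest treated library was thus 1.28 times the highest control, the widest such gap among the 9 genes. Group means were 1504 ± 587 RPKM in Vismodegib and 678 ± 110 RPKM in DMSO (SD, n = 3 each), a ratio of 2.22. The log2 difference was 1.09 (SE 0.34), with a 95% interval from 0.32 to 1.86 and an unadjusted p = 0.0108 by limma, the smallest of the 9, and 52 of the 11818 genes had a smaller one. The exact permutation test gave p = 0.1, two-sided, the smallest that 3 against 3 allows. Within the treated group Spp1 varied more than within the controls, with a coefficient of variation of 39.1% in Vismodegib and 16.2% in DMSO. Without Vismodegib replicate 1 the difference was 0.79, and without Vismodegib replicate 3 it was 1.33.

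Spp1 alone made up 77.0% to 86.0% of the summed RPKM of the 9 genes in the Vismodegib libraries and 74.4% to 78.1% in the DMSO libraries. Among all genes of a library it ranked 18th, 46th and 54th in Vismodegib replicates 1, 2 and 3, and 70th, 131st and 100th in DMSO replicates 1, 2 and 3. Macrophages are a known source of Spp1 in tumours, and their 10 markers, all in the table and none at 0 in any library, summed to 1630, 798 and 2720 RPKM in Vismodegib and to 2140, 1220 and 1360 RPKM in DMSO, with C1qa making up most of each sum. Of these markers 8 were tested, 2 with differences above 0 and 6 below, with a median of -0.23. The 8 epithelial markers summed to 2710, 2570 and 2690 RPKM in Vismodegib and to 1650, 2570 and 2860 RPKM in DMSO, with Krt18 and Krt8 making up most of each sum, and the groups overlapped. Of these 8 markers 6 had differences above 0, with a median of 0.53, and the 2 below were Krt8 (-0.23) and Krt18 (-0.06). In Cldn4 (0.90) and Krt7 (0.78) all Vismodegib libraries lay above all DMSO libraries, as in 4.29% of all genes tested. The part of macrophages and of tumour cells in the Spp1 difference was not tested. As in any bulk sample, more RNA per cell and more cells that make it cannot be told apart here.

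The thrombospondins are trimeric glycoproteins that restrain vessel growth. Thrombospondin 1 also activates latent TGF-beta and is stored in platelets. Thbs1 (ENSMUSG00000040152.8, mm10 chromosome 2, 118111876 to 118127133, plus strand) measured 30.4, 30.5 and 24.0 RPKM in the Vismodegib libraries, and 23.6, 4.35 and 15.7 RPKM in the DMSO libraries. DMSO replicate 2 stood far below every other library, and the lowest treated library was only 1.02 times the highest control. The log2 difference of 1.21 was the largest of the 9 genes and had the widest 95% interval, from 0.01 to 2.41 (unadjusted p = 0.0484 by limma, exact permutation p = 0.1). Without DMSO replicate 2 it was 0.54, and without DMSO replicate 1 it was 1.69. The 7 platelet markers, of which Ppbp, Gp9, Gp5 and Treml1 were at 0 in some libraries, summed to 33.6, 12.7 and 8.34 RPKM in Vismodegib and to 11.6, 29.7 and 24.7 RPKM in DMSO. Pf4, at 7.15 to 32.3 RPKM, made up most of each sum, so the sum largely gives Pf4 alone. The platelet sum was highest in Vismodegib replicate 1, where Thbs1 was near its highest. It was next highest in DMSO replicate 2, where Thbs1 was lowest. The part of platelets in the Thbs1 difference was not tested.

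Thbs2 (ENSMUSG00000023885.9, mm10 chromosome 17, 14665500 to 14694235, minus strand) measured 15.8, 13.4 and 26.5 RPKM in the Vismodegib libraries, and 12.7, 8.92 and 8.76 RPKM in the DMSO libraries. Vismodegib replicate 3 stood well above the rest, and Vismodegib replicate 2 lay just above the highest control. The log2 difference was 0.81 (SE 0.32), with a 95% interval from 0.09 to 1.53 (unadjusted p = 0.0323 by limma, exact permutation p = 0.1), and it was 0.53 without Vismodegib replicate 3. Thbs1 exceeded Thbs2 in 4 of the 6 libraries. The ratio of Thbs1 to Thbs2 was 1.92, 2.27 and 0.906 in Vismodegib and 1.86, 0.488 and 1.79 in DMSO, and the groups overlapped (log2 difference of the ratio 0.43, exact permutation p = 0.5). This ratio and that of the CCN genes were compared after the data had been seen.

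Tenascin C and periostin are matrix glycoproteins that fibroblasts lay down in healing tissue and tumour stroma, where periostin binds tenascin C and collagen. Tnc (ENSMUSG00000028364.15, mm10 chromosome 4, 63959785 to 64047015, minus strand) measured 22.5, 17.7 and 28.2 RPKM in the Vismodegib libraries, and 9.29, 17.5 and 9.82 RPKM in the DMSO libraries. DMSO replicate 2 reached almost the level of Vismodegib replicate 2, while the other 2 controls were far lower. The log2 difference was 0.91 (SE 0.32), with a 95% interval from 0.18 to 1.64 (unadjusted p = 0.0199 by limma, exact permutation p = 0.1). Leaving out each library in turn gave 0.75 to 1.19.

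Postn (ENSMUSG00000027750.16, mm10 chromosome 3, 54361109 to 54391037, plus strand) measured 9.48, 8.72 and 14.5 RPKM in the Vismodegib libraries, and 5.86, 7.98 and 3.90 RPKM in the DMSO libraries. The highest value was again in Vismodegib replicate 3 and the highest control again in DMSO replicate 2. The log2 difference was 0.85 (SE 0.33), with a 95% interval from 0.10 to 1.59 (unadjusted p = 0.03 by limma, exact permutation p = 0.1), and 0.60 to 1.07 when each library was left out.

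Sparc is a collagen-binding glycoprotein that helps procollagen reach the matrix (ENSMUSG00000018593.13, mm10 chromosome 11, 55394500 to 55423183, minus strand). It was at 84.4, 47.3 and 78.0 RPKM in the Vismodegib libraries, and at 39.7, 57.4 and 29.3 RPKM in the DMSO libraries. The groups overlapped, since DMSO replicate 2 lay above Vismodegib replicate 2. The log2 difference of 0.73 had 95% limits of -0.05 and 1.51 (unadjusted p = 0.0618 by limma, exact permutation p = 0.2).

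**Figure D2:**
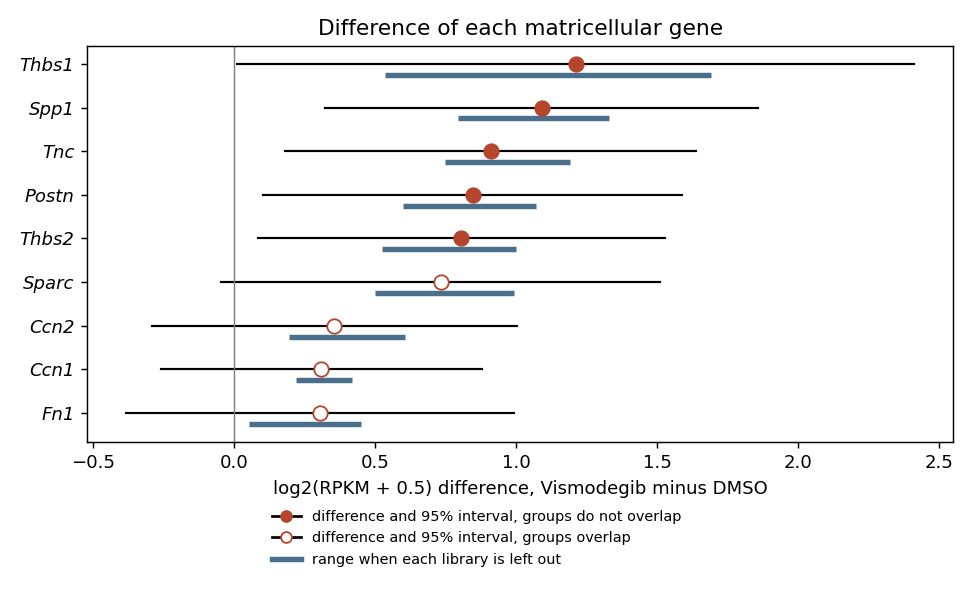
Vismodegib minus DMSO difference of log2(RPKM + 0.5) for each gene (circles) with its 95% interval from limma (black lines) and the range when each library was left out (blue bars); filled circles mark genes whose groups did not overlap. All 9 circles and all 9 blue bars lie above 0, while the intervals of Sparc, Ccn2, Ccn1 and Fn1 cross 0. For filled circles the blue bar could not reach 0, since leaving out a library keeps such groups apart.

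Fn1, Ccn1 and Ccn2 had the smallest differences. Fibronectin is the adhesive glycoprotein to which many integrins bind (Fn1, ENSMUSG00000026193.15, mm10 chromosome 1, 71585520 to 71653200, minus strand). Fn1 was at 81.6, 49.5 and 46.8 RPKM in the Vismodegib libraries, and at 56.7, 39.3 and 44.7 RPKM in the DMSO libraries. Only Vismodegib replicate 1 lay above all controls. The log2 difference of 0.31 had 95% limits of -0.38 and 0.99 (exact permutation p = 0.4), and without Vismodegib replicate 1 it was 0.05.

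Ccn1 and Ccn2 are cysteine-rich secreted proteins that bind integrins and heparan sulphate. Both are widely used as readouts of the YAP and TAZ coactivators, and Ccn2 is also induced by TGF-beta. Ccn1 (ENSMUSG00000028195.4, mm10 chromosome 3, 145646976 to 145649981, minus strand) measured 39.6, 47.0 and 52.3 RPKM in the Vismodegib libraries, and 34.4, 34.1 and 43.1 RPKM in the DMSO libraries. It varied least of the 9 over all 6 libraries, with a coefficient of variation of 17.2%. Its groups overlapped, and the log2 difference of 0.31 had 95% limits of -0.26 and 0.88 (exact permutation p = 0.2).

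Ccn2 (ENSMUSG00000019997.11, mm10 chromosome 10, 24595442 to 24598683, plus strand) measured 68.5, 62.1 and 38.5 RPKM in the Vismodegib libraries, and 43.7, 41.4 and 42.7 RPKM in the DMSO libraries. The controls lay within a coefficient of variation of 2.66%, and the treated libraries lay on both sides of them. The log2 difference of 0.36 had 95% limits of -0.29 and 1.003 (exact permutation p = 0.4). Leaving out Vismodegib replicate 1 gave a difference of 0.20, and leaving out Vismodegib replicate 3 gave 0.61. Across the 6 libraries Ccn1 and Ccn2 had a Pearson's r of 0.0298 (permutation p = 0.949, adjusted p = 0.949 over 36 pairs of genes) and a Spearman's rho of -0.143 (permutation p = 0.803, adjusted p = 0.946), and r was 0.37 without Vismodegib replicate 3 and DMSO replicate 2. Vismodegib replicate 3 had the highest Ccn1 and the lowest Ccn2, so that the ratio of Ccn1 to Ccn2 was 0.578, 0.757 and 1.36 in Vismodegib and 0.788, 0.823 and 1.01 in DMSO (log2 difference of the ratio -0.05, exact permutation p = 0.8).

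The library with the highest value differed between the 9 genes. In Vismodegib replicate 3, the genes Tnc, Thbs2, Postn and Ccn1 had their highest values. In Vismodegib replicate 1 that held for Sparc, Spp1, Fn1 and Ccn2, and Thbs1 was highest in Vismodegib replicate 2. Of the 36 pairs of genes, 35 had a Pearson's r above 0 on log2 values over the 6 libraries, with a median of 0.52. As deviations from the group means, 17 of 36 were above 0, with a median of -0.08. No pair passed at an adjusted p under 0.05 over the 36 pairs by the exact permutation test, where 6 had an unadjusted p under 0.05. The closest pair was Tnc and Postn (r = 0.934, p = 0.00556, adjusted p = 0.2, rho = 0.943, p = 0.0167, adjusted p = 0.2, n = 6, exact permutation tests). Their r was 0.947 without DMSO replicates 1 and 3, and 0.83 as deviations from the group means. Tnc with Sparc had r = 0.912 and Postn with Sparc r = 0.896 (permutation p = 0.0222 and 0.0181, adjusted p = 0.267 for both, rho = 0.829 and 0.886 with permutation p = 0.0583 and 0.0333), and 0.809 and 0.79 without the 2 libraries farthest from the median. Spp1 with Fn1 had r = 0.838 (exact permutation p = 0.0347, adjusted p = 0.27, rho = 0.829, p = 0.0583). That relation rested on Vismodegib replicate 1 and DMSO replicate 2, without which r was 0.163.

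**Figure D3:**
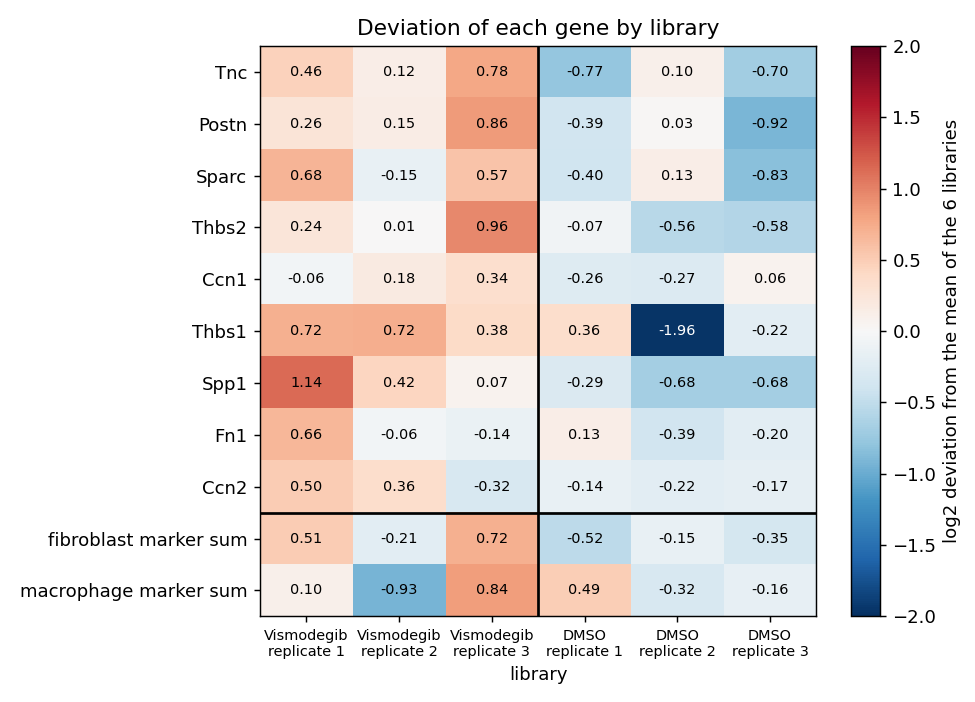
Deviation of log2(RPKM + 0.5) from the gene's mean over the 6 libraries, for the 9 genes (rows above the line) and, as deviations of log2 sums, for the fibroblast and macrophage markers (rows below the line), with the Vismodegib libraries on the left of the vertical line. Tnc, Postn and Sparc are high in Vismodegib replicates 1 and 3 and low in DMSO replicates 1 and 3, and Thbs1 is lowest in DMSO replicate 2, at -1.96.

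Markers of some other cells moved with part of this pattern. The 12 fibroblast and pericyte markers, all in the table and none at 0 in any library, summed to 198, 120 and 228 RPKM in the Vismodegib libraries, and to 96.4, 125 and 109 RPKM in the DMSO libraries. The sum was highest in the 2 treated libraries with the most Tnc, Postn and Sparc, and the groups overlapped (exact permutation p = 0.2). The collagen genes Col1a1, Col1a2 and Col3a1 made up most of each sum. Of its 11 tested genes, 11 had differences above 0, with a median of 0.52, from 0.04 in Pdgfrb to 1.33 in Lum. Those of Pdgfra and Thy1 were 0.14 and 0.23, and those of Col1a1, Col1a2 and Col3a1 were 0.74, 1.02 and 1.25. In 3 of the 11, Col1a2, Lum and Cspg4, all Vismodegib libraries lay above all DMSO libraries, against 4.29% of all genes tested. At an unadjusted p under 0.05 by limma there were 3 of the 11, against 1.94% of all genes in this direction, and 0 passed after adjustment. Lum, at an unadjusted p = 0.00371 by limma, was below each of the 9 matricellular genes. The 8 skeletal muscle markers summed to 166, 124 and 87.6 RPKM in Vismodegib and to 23.9, 165 and 17.6 RPKM in DMSO, with Pvalb at 0 in 1 library, and 8 of 8 tested had differences above 0, with a median of 1.32. The 8 adipocyte markers summed to 99.5, 79.3 and 11.1 RPKM in Vismodegib and to 16.2, 16.0 and 7.81 RPKM in DMSO, with Adipoq and Lep at 0 in some libraries, and 6 of 6 tested were above 0, with a median of 1.34. Both medians were above the 0.81 of the 9 matricellular genes. The 8 endothelial markers, none at 0, summed to 32.3 to 59.6 RPKM in Vismodegib and to 32.3 to 47.1 RPKM in DMSO. Of these, 5 of 5 tested were above 0, with a median of 0.33. The 8 neutrophil markers summed to 15.5 to 107 RPKM in Vismodegib and to 24.4 to 217 RPKM in DMSO. Ly6g, Mmp8 and Camp were at 0 in some libraries. Here 6 of 6 tested were below 0, with a median of -0.31. The part of these cells in the differences of the 9 genes was not tested.

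The genes most like each of the 9 were taken by Pearson's r of log2 values over the 6 libraries. They came from the 5227 genes that averaged 5 RPKM or more, and only a few were matrix genes. Nearest to Tnc were Grb7 (r = 0.982), Ten1 (0.978) and the collagen gene Col3a1 (0.977). Nearest to Thbs2 were Cblc (0.988), Igsf9 (0.987) and the collagen gene Col12a1 (0.981). Sparc was nearest to Ap2m1 (0.992), the pseudogene Rps27a-ps2 (0.990), whose reads cannot be told from those of its parent gene with certainty, and Serpinh1 (0.983), the collagen chaperone. Postn was nearest to Rfxank (0.993), 2310009B15Rik (0.982) and Mlec (0.982), and Spp1 to Selenos (0.993), Mpc2 (0.989) and Pmp22 (0.988). For Thbs1 they were Stim2, Vwa5a and Sccpdh (each 0.996), for Fn1 Phyh (0.995), Ubald1 (0.978) and Timp2 (0.969), for Ccn2 Atp6v1g1 (0.990) and Ube2b (0.986), and for Ccn1 Cltb (0.944), Macrod1 (0.930) and Vps4a (0.912). Over only 6 libraries such values are common: 5 genes had r over 0.9 with Ccn1 and 43 to 170 with each of the others.

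Further genes of the family were mostly low. Of 18 other family genes in the table, 7 were high enough to be tested, 5 with differences above 0 and 2 below, with a median of 0.08 and 0 past the threshold. Sparcl1, a relative of Sparc, was at 11.4, 6.84 and 13.0 RPKM in Vismodegib and at 7.45, 3.83 and 3.48 RPKM in DMSO, with a log2 difference of 1.03. Ibsp, bone sialoprotein, a mineral-binding relative of osteopontin, was at 3.54, 4.00 and 2.50 RPKM in Vismodegib and at 2.90, 0.139 and 0.717 RPKM in DMSO, with a difference of 1.45. In both the groups overlapped. Tgfbi, a relative of periostin, had a difference of -0.08 and Ccn5 one of -0.76. Thbs4, Tnxb, Ccn3 and Comp were among the 11 genes whose means lay under the 0.5 RPKM needed for the test.

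Lists of receptors, regulators and enzymes had median differences below that of the 9 genes. Of 13 tested receptors, 11 were above 0 and 2 below, with a median of 0.10. The 4 most abundant were the syndecan gene Sdc4 (275 ± 11.8 RPKM in Vismodegib and 257 ± 98.1 RPKM in DMSO), the integrin chains Itgb1 (73.4 ± 20.3 and 66.6 ± 25.3 RPKM) and Itgb5 (69.8 ± 26.5 and 46.9 ± 24.6 RPKM), and the osteopontin and hyaluronan receptor Cd44 (51.2 ± 14.7 and 52.7 ± 27.1 RPKM), each as mean ± SD of 3 libraries. Of 16 TGF-beta pathway genes, 10 were above 0 and 6 below, with a median of 0.14. The ligand Tgfb1 was at 19.8 ± 3.56 RPKM in Vismodegib and 19.1 ± 2.64 RPKM in DMSO. In Smad3 (difference 0.565) and Ltbp2 (0.332) all Vismodegib libraries lay above all DMSO libraries, as in 4.29% of all genes tested. In 0 of the 16 did they all lay below. Of 16 tested genes of the YAP and TAZ list, 8 were above 0 and 8 below, with a median of 0.0035. The most abundant of these, Axl, was at 34.4 ± 3.04 RPKM in Vismodegib and 51.1 ± 18.8 RPKM in DMSO, with the lowest difference, -0.49. Ankrd1, like Ccn1 and Ccn2 a target of YAP and TAZ, was at 9.87 ± 3.58 RPKM in Vismodegib and 12.7 ± 5.34 RPKM in DMSO. Yap1 was at 7.80 ± 1.08 and 7.73 ± 1.36 RPKM, and Wwtr1, which encodes TAZ, at 16.9 ± 2.27 and 17.6 ± 3.66 RPKM. Ankrd1, Yap1 and Ltbp2 were named after their values were seen.

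Of 15 tested matrix processing enzymes, 11 were above 0 and 4 below, with a median of 0.46. Among the abundant proteases, Mmp9 and Plau varied widely between the controls. Mmp9 was at 95.6 ± 17.8 RPKM in Vismodegib and 81.9 ± 68.4 RPKM in DMSO. Plau was at 75.6 ± 24.8 and 107 ± 108 RPKM, and Mmp14 at 80.8 ± 22.8 and 64.0 ± 20.6 RPKM. Plaur, next in abundance, was at 34.9 ± 6.68 and 65.8 ± 38.1 RPKM, with the lowest difference of the list, -0.69. Pcolce, which enhances procollagen processing by Bmp1 and was named after its value was seen, was at 59.8, 32.5 and 40.3 RPKM in Vismodegib and at 24.8, 22.2 and 12.6 RPKM in DMSO, without overlap, with a log2 difference of 1.14 (unadjusted p = 0.00947, adjusted p = 1 by limma). Loxl2, also named after its value was seen, was the other enzyme gene whose groups did not overlap, with a log2 difference of 0.464. Over these 4 lists 0 genes passed by limma after adjustment, and Pcolce was the 1 gene with an unadjusted p under 0.05.

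**Figure D4:**
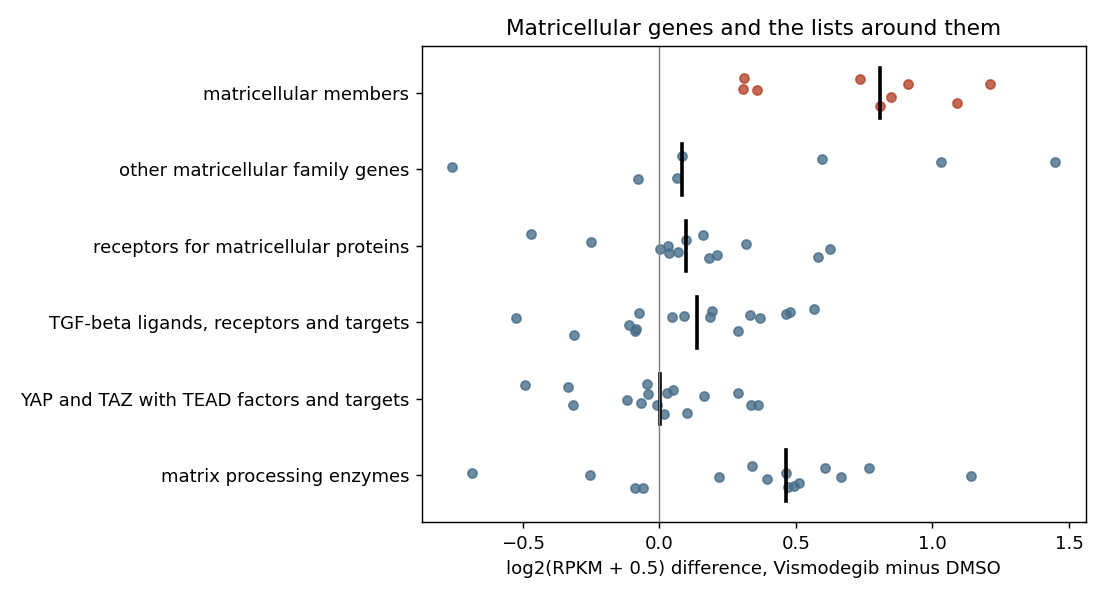
Vismodegib minus DMSO difference of log2(RPKM + 0.5) for each tested gene of the matricellular genes (red) and of 5 lists around them (blue), with black bars at each list's median and random vertical spread. The 9 genes lie between 0.31 and 1.21, and the medians of the other lists lie between 0.0035 and 0.46.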

How the data were processed

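RNA was sequenced from whole 4T1 tumours, with 3 libraries per group, as pairs of 150 bases, per the labels. The authors deposited RPKM values, which divide a gene's reads by its length and by the library's reads, for 23381 gene symbols. The build was mm10 and the tools named were Partek, STAR, HISAT2, cutadapt, SAMtools and bcl2fastq 2.17, per the submitters' processing notes. Which of them counted the reads, against which annotation and whether by strand, is not given in the sources used here. RPKM divides by the library total, so each value also depends on the other genes.

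Read totals were recovered from the steps of low values of 7115 genes with 1 transcript in GENCODE M21, the annotation also used for coordinates. They were 41600000, 42700000 and 58000000 for Vismodegib replicates 1, 2 and 3, and 37500000, 34800000 and 40500000 for DMSO replicates 1, 2 and 3. With these, 83.9% to 85.1% of values up to 20 reads were whole within 0.02 reads. Totals too high by a whole factor would not be noticed.

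The 11818 genes that averaged 0.5 RPKM or more were tested with limma 3.58.1 (R 4.3.3) on log2(RPKM + 0.5) values (group only, trended eBayes, two-sided, Benjamini-Hochberg over all genes), a scale that understates changes of low genes. Single values were compared by exact permutation. Only the limma step was tested on simulated data, with independent normal noise for each gene and no effects shared by a library. The 9 genes and all lists were chosen with earlier results of these data known. The rule named all 9 genes, up to 4 of the most abundant genes of each list, and the 3 genes most like each of the 9, of which 1 is not reported here. Ratios between paralogs and other settings for overlap were added after the data were seen.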

Additional observations from a re-analysis of the deposited data

How the results depend on the processing

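There were 17 alternatives in pseudocount, filter, scaling, variance model, library weights, replicate block, trends on GC content and length, and libraries left out. Across them 153 differences of the 9 genes were recomputed, and 0 changed sign. The filter, variance model and replicate block leave a difference as it is, so these could not change its sign. Nor could leaving out a library do so where the groups did not overlap. With library weights, which gave DMSO replicate 3 a weight of 7.28 and DMSO replicates 1 and 2 weights of 0.319 and 0.316, 3 of the 9 passed by limma, Spp1 (1.26, adjusted p = 0.0217), Postn (1.12, adjusted p = 0.0255) and Tnc (0.97, adjusted p = 0.0309), among 420 genes in all, while the difference of Ccn1 was 0.09 in place of 0.31 and that of Thbs1 0.94 in place of 1.21. The adjusted p of the 3 that passed ranged from 0.294 for Spp1, 0.466 for Postn and 0.493 for Tnc, each without DMSO replicate 1, up to 1 under the other alternatives. With the replicate number as a block, 1 gene passed in all, Fam25c, named after its value was seen, and 0 of the 9. As deviations of each gene from its group mean, same-numbered libraries had correlations of 0.003, 0.04 and -0.305. Vismodegib and DMSO libraries of different number had -0.231 to 0.303, so the numbers were not taken as pairs. Leaving out each library gave 0 to 19 genes past the threshold, 19 without DMSO replicate 1, and 0 of the 9 each time; with all libraries 0 genes passed, with 266 at an unadjusted p under 0.05. The median over the 9 genes, 0.81, was 0.60 to 0.99 when each library was left out, lowest without DMSO replicate 3 and highest without Vismodegib replicate 2. The count of 5 genes whose groups did not overlap was 3 with median-ratio scaling and 3 with quantile scaling. It was 6 with each library left out, where 5.16% to 15% of all genes did not overlap in this direction. Leaving out a library cannot make separate groups overlap, so here the count could only stay at 5 or rise. No pair of the 9 passed with median-ratio scaling, as with none. The cause of these shifts was not tested. Intervals cover the spread between 3 libraries per group only.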
